A study of Homo sapiens with 16 samples.

Results

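The mitochondrial ribosomal protein genes were taken as all gene symbols made of MRPL or MRPS, a number and at most 1 further letter. The rule found 76 genes of the 21453 symbols measured, 47 with MRPL symbols (large subunit) and 29 with MRPS symbols (small subunit). For the 17 of them with several transcript rows, 109 rows in all over the 76 genes, the row with the highest mean was used. All 76 passed the filter on low values, among 13827 genes tested.

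Mitochondrial ribosomes translate the few messages of the mitochondrial genome, which encode core subunits of the respiratory chain and of ATP synthase. Every protein of these ribosomes is encoded in the nucleus, made in the cytosol and imported, so that the genes described here must be expressed together with ribosomal RNA made inside the organelle. Many of the proteins descend from bacterial ribosomal proteins and keep their numbers, and others were added during the evolution of mitochondria. Of the 76 symbols, 44 carry the number of a bacterial protein (MRPL1 to MRPL36 and MRPS2 to MRPS21) and 32 a number past those. MRPS30 and MRPS18A sit in the large subunit in ribosome structures in spite of their symbols, and MRPS36, which the RefSeq gene table names KGD4, has since been assigned to the 2-oxoglutarate dehydrogenase complex. These 3 genes were kept under their symbols.

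RNA was sequenced from T-47D breast cancer cells and ECC-1 endometrial cancer cells, 2 established lines that carry estrogen receptor alpha. Cells of both lines spent 5 days in medium low in hormones with 10% charcoal-stripped serum, and then 8 h with 10 nM 17β-estradiol, 100 nM bisphenol A (BPA, a plastics monomer), 100 nM genistein (a soy isoflavone) or the vehicle, 0.02% DMSO. There were 2 libraries for every line and treatment, 16 in 8 groups, made from polyadenylated RNA without strand information. The labels do not say that the 2 are separate cultures, so the p-values rest on a spread between samples that may be technical, and each tissue stands on 1 line.

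Levels are RPKM, reads per kilobase of transcript and per M reads, divided by a scale factor per library. Differences are on the scale of log2(scaled RPKM + 0.5), which makes the change of low genes smaller. They come from 1 limma fit across all genes and libraries, with a threshold of 0.05 on the p adjusted by the Benjamini-Hochberg method over all genes. Depth was estimated at 17.3 to 29.2 M reads per library. The member with the fewest reads, MRPL33, rested on an estimated 25.5 reads in its lowest library. The summed level of 5 luminal breast markers was 854.9 to 1137 in T-47D libraries and 5.32 to 7.44 in ECC-1 libraries. That of 5 Mullerian markers was 0.44 to 0.75 in T-47D libraries and 328.0 to 372.6 in ECC-1 libraries, as the labels have it. Of 4 leukocyte genes PTPRC and CD3E were at most 0.12 in any library, CD68 at most 1.71 and LYZ at most 6.32, and the 4 summed to 4.37 to 7.35 in T-47D and 4.08 to 6.36 in ECC-1. Of 5 fibroblast genes COL1A1 had 15.5 to 30.6 in T-47D and 8.73 to 15.04 in ECC-1, and the other 4 were at most 1.19. The 3 endothelial genes summed to at most 1.81. The part of these genes in the differences was not tested. The first estradiol library of each line stood apart from the others, as described with the compounds below. In RNA from whole dishes, fewer cells of a type and less RNA per cell cannot be told apart.

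Promoter sequences were available for 67 of the 76 genes. Each was 300 bases long, 250 before and 50 after the start of transcription, from RefSeq on GRCh38.p14. They were searched on both strands for 5 motifs linked to the regulation of nuclear genes for mitochondria or to estrogen receptors. The ETS core CCGGAAG, bound by NRF-2 (the protein of GABPA and GABPB1) among others, stood in 28 promoters, 41.8% of the members, against 10.7% of all 27305 promoters and 18.5% of the 9327 promoters of tested genes. The YY1 motif AAGATGGCG stood in 13 of them, 19.4%, against 1.85% of all promoters and 3.95% of those of tested genes. The NRF1 motif GCGCATGCG stood in 3 (4.48%, against 3.55% of those of tested genes), and the E-box CACGTG, which MYC binds, in 6 (8.96%, against 10.4%). The full estrogen response element GGTCANNNTGACC stood in none of the 67 and in 0.07% of all promoters. An ETS and a YY1 match can share bases, which they did in 0 of the 4 members that held both (MRPL38, MRPL52, MRPS10 and MRPS18A). A match describes letters and is not a binding site.

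The 250 bases before the start are shown for 4 genes on which the results turn. MRPL51 and MRPL17 were much lower in T-47D, MRPS30 was higher in T-47D, and MRPL24 passed the threshold with estradiol. Capitals mark motif matches: in MRPL51 2 ETS cores on opposite strands at -119 to -113 and -104 to -98, and in MRPL17 the NRF1 motif at -81 to -73, overlapping a match on the other strand at -80 to -72, and again at -43 to -35, counted from -1 at the last base before the start. MRPS30 holds no match in the 250 bases shown but has the YY1 motif in the 50 bases after the start, at 14 to 22 counted from 1 at the first of those 50. MRPL24 holds no match in the whole 300 bases.
MRPL51, chr12:6493263-6493512, minus strand: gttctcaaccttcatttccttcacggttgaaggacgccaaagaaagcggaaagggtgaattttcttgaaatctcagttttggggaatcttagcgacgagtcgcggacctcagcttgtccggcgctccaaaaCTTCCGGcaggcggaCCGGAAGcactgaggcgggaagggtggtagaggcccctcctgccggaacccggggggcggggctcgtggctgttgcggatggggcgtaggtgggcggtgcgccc
MRPL17, chr11:6683341-6683590, minus strand: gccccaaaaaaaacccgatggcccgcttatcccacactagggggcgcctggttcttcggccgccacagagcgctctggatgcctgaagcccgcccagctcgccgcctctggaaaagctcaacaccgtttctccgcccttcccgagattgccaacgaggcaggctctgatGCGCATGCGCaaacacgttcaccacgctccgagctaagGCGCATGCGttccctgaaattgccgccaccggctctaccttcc
MRPS30, chr5:44808697-44808946, plus strand: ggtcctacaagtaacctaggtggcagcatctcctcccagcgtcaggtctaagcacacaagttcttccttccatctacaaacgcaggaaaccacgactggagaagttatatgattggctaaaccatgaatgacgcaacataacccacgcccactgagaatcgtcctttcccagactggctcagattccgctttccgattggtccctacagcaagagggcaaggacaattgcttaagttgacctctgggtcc
MRPL24, chr1:156741089-156741338, minus strand: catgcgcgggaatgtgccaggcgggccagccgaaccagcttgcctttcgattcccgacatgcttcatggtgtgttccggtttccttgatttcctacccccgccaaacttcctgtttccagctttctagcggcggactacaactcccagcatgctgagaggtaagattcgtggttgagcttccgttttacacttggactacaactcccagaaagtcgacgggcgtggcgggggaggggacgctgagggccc

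The 76 genes spanned about an order of magnitude in mean level. The highest means over the 16 libraries were those of MRPL51, an addition of mitochondria, with 95.2 scaled RPKM, MRPL3, a core protein near the peptidyl transferase centre, with 91.9, MRPS7, a small subunit protein of bacterial descent, with 88.0, MRPL49 with 81.4 and MRPL37, another mitochondrial addition, with 81.2. The lowest were MRPL33 with 8.90, MRPS36 with 10.8, MRPS31 with 10.9, MRPL22 with 11.9 and MRPL19 with 11.98. The order of the levels was only partly shared by the lines: log2 levels of the 76 genes correlated at r = 0.70 between the T-47D and ECC-1 DMSO means, against 0.99 between the 2 DMSO libraries of either line. That is a description across genes, which share libraries and depth.

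The main difference was between the lines. The summed level of the 76 genes was 2332 ± 209 scaled RPKM in T-47D, against 3485 ± 293 in ECC-1 (SD, n = 8 libraries over the 4 treatments), a ratio of 0.669. The large subunit genes summed to 1409 ± 138 in T-47D, against 2198 ± 189 in ECC-1, a ratio of 0.641. The small subunit genes summed to 923.6 ± 71.9 in T-47D, against 1287 ± 104 in ECC-1, a ratio of 0.718. The highest T-47D sum, 2760.4 in the first estradiol library, lay just under the lowest ECC-1 sum, 2779.8, also in the first estradiol library.

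In the DMSO cells 52 of the 76 genes were lower in T-47D and 5 were higher, relative to ECC-1, where 37.1% of all genes tested were lower and 39.6% higher. The median log2 difference of the members was -0.58, that of all genes 0.04. With the 4 treatments averaged, 54 members were lower and 12 higher, against 42.8% and 45.6% of all genes, and the members' median was -0.50, that of all genes 0.05. By subunit, 33 of the 47 MRPL genes were lower and 6 higher (median -0.65), and 21 of the 29 MRPS genes were lower and 6 higher (median -0.47). By the number in the symbol, 33 of the 44 genes with the number of a bacterial protein were lower and 6 higher (median -0.71). Of the other 32 genes, 21 were lower and 6 higher (median -0.43). The difference between these classes was not tested.

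All 8 T-47D libraries lay below all 8 ECC-1 libraries for 32 members, against 32.6% of all genes tested. All 8 lay above for 7 members, against 34.9% of all genes. The other 37 members overlapped. Without the first estradiol library of each line, 55 members lay wholly below and 8 wholly above, against 37.8% and 40.2% of all genes.

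**Figure D1:**
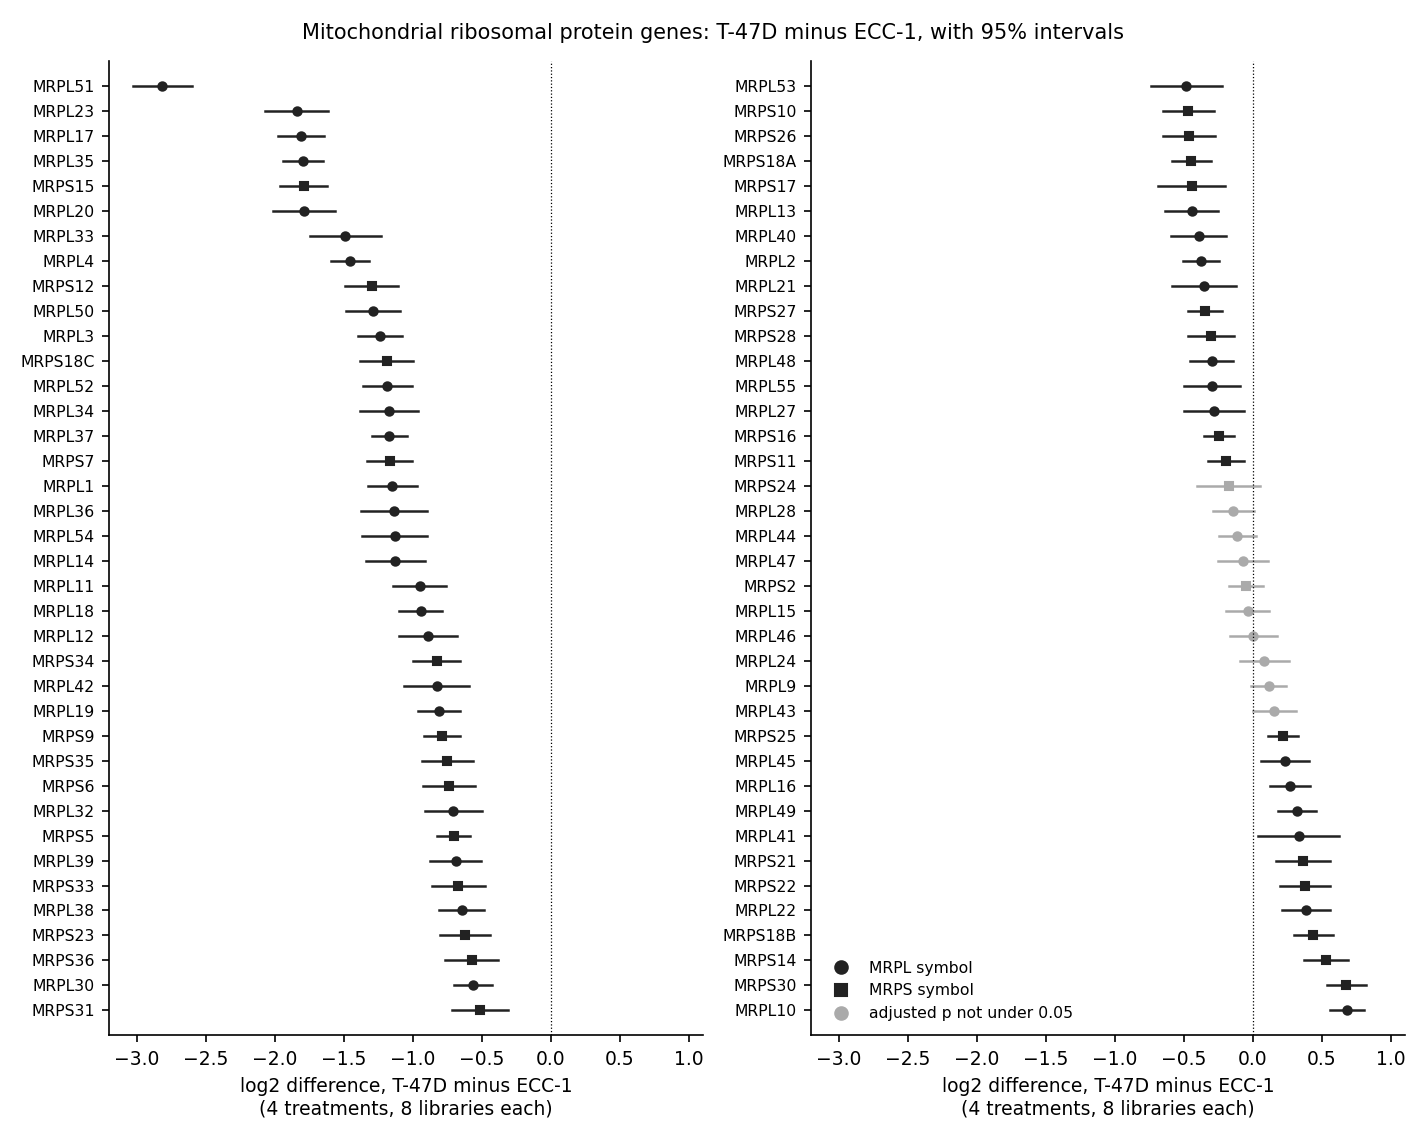
Log2 difference between T-47D and ECC-1 for each of the 76 genes (points, MRPL circles and MRPS squares) with its 95% interval (lines), averaged over the 4 treatments, in order from the lowest. Grey marks the 10 genes that did not pass the threshold. MRPL51 stands apart at -2.82, 54 genes lie below 0 and 12 above it past the threshold, and none is higher than 0.68.

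The members' transcripts were short, with a median length of 1345 bases against 2868 for the 13010 tested genes with a known length. Of the 76, 64 were at most 2163 bases long, the limit under which the shortest of 3 equal parts of these genes lies. The removal of trends covers these 13010 genes. When trends with transcript length and GC content were removed from each library, 41 members were lower and 15 higher in the DMSO cells (median -0.37), against 40.74% and 40.45% of all genes. Over the 4 treatments 47 were lower and 20 higher (median -0.38), against 45.48% and 45.12% of all genes. Without the scale factors the median of all genes moved to -0.05 over the 4 treatments, a shift of 0.10. There 58 members were lower and 9 higher, with a median of -0.61, against 46.13% and 42.17% of all genes.

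Among the large subunit genes, MRPL51 differed most between the lines. Its level in T-47D was 19.8 at the lowest, 22.5 at the median and 34.2 at the highest, and in ECC-1 124.1, 171.4 and 184.6 scaled RPKM. The T-47D libraries stood far below all ECC-1 libraries, by -2.82 on the log2 scale (SE 0.10, adjusted p = 2.08e-13 in limma), or 7.04-fold. Exons of MRPL51 overlap those of NCAPD2, a condensin subunit gene on the opposite strand, in GENCODE. NCAPD2 was also lower in T-47D, at a log2 difference of -2.41, with 11.1 to 13.0 in T-47D, against 60.3 to 75.7 in ECC-1, and without strand information reads from the shared exons cannot be told apart.

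MRPL23, whose bacterial counterpart lies at the exit of the peptide tunnel, had 11.8, 12.2 and 20.5 in T-47D (lowest, median and highest), against 35.95, 50.2 and 55.3 in ECC-1, with a difference of -1.84 on the log2 scale (SE 0.11, adjusted p = 1.05e-10). MRPL17, of bacterial descent, had 7.45, 9.03 and 14.2 in T-47D, against 27.1, 35.3 and 37.8 in ECC-1, a difference of -1.81 (SE 0.08, adjusted p = 3e-12). MRPL35, also of bacterial descent, had 6.59, 7.81 and 8.78 in T-47D, against 26.0, 27.4 and 30.5 in ECC-1, a difference of -1.79 (SE 0.07, adjusted p = 4.46e-13). For all 3 the highest T-47D library lay well under the lowest ECC-1 library. MRPL23 shares exon sequence with its antisense RNA MRPL23-AS1, and MRPL17 and MRPL35 overlap no annotated gene in their exons, though MRPL35 has 4 named pseudogenes.

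MRPL20, which binds early in the assembly of the bacterial large subunit, had 15.0, 21.2 and 35.4 in T-47D, against 61.3, 76.3 and 78.7 in ECC-1, a difference in log2 level of -1.79 (SE 0.11). MRPL33, a small protein near the tRNA exit site, had 2.86, 4.04 and 6.15 in T-47D, against 7.59, 14.2 and 15.7 in ECC-1, a difference of -1.49 (SE 0.12). MRPL33 overlaps BABAM2, listed here as BRE, on its own strand, and BRE was higher in T-47D by 0.42. These groups did not overlap either, and all limma p-values adjusted over all genes for this and the following named members of the line comparison were under the threshold unless stated. MRPL4, which lines the peptide tunnel, had 18.6, 21.7 and 24.2 in T-47D, against 49.4, 59.1 and 71.8 in ECC-1, a difference of -1.46 (SE 0.06). MRPL50, an addition of mitochondria, had 12.6, 13.3 and 14.9 in T-47D, against 21.8, 35.6 and 38.9 in ECC-1, a difference of -1.29 (SE 0.09). MRPL50 was almost even over the T-47D libraries, and its 1 low ECC-1 value was that of the first estradiol library. In the DMSO cells alone MRPL14, a protein of the face that meets the small subunit, was also among the 10 largest, at 32.6 and 28.9 in T-47D, against 74.5 and 82.7 in ECC-1 (log2 difference -1.34, SE 0.20).

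**Figure D2:**
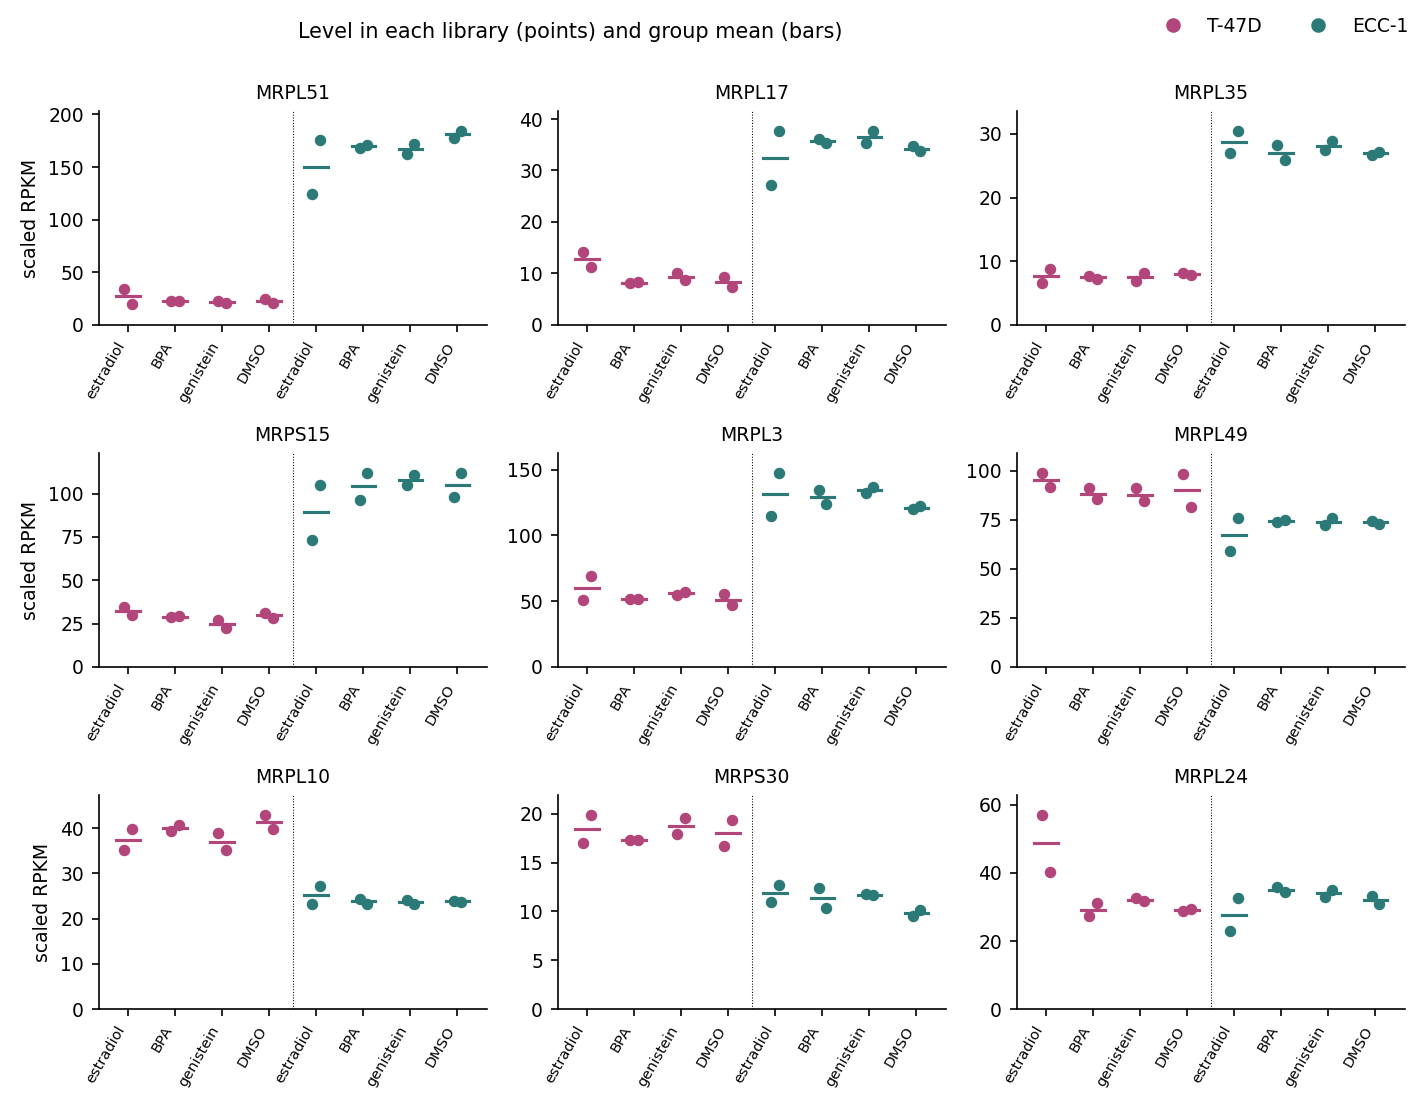
Scaled RPKM in each library (points) and the mean of the 2 libraries (bars) for 9 genes, by treatment, T-47D left of ECC-1. MRPL51, MRPL17, MRPL35, MRPS15 and MRPL3 are lower in every T-47D library than in any ECC-1 library, MRPL49, MRPL10 and MRPS30 are higher, and MRPL24 is highest in the T-47D estradiol libraries.

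The small subunit gene with the largest difference was MRPS15, whose bacterial counterpart takes part in the bridges between the subunits. It had 22.6, 28.9 and 34.5 in T-47D, against 73.3, 105.1 and 112.0 in ECC-1, a difference in log2 level of -1.79 (SE 0.08, adjusted p = 3.15e-12). MRPS12, a protein of the decoding centre and the site of streptomycin resistance in bacteria, had 15.4, 18.4 and 28.6 in T-47D, against 38.9, 48.6 and 53.5 in ECC-1, a difference of -1.30 (SE 0.09). Both genes were lower in every T-47D library. SARS2, which overlaps MRPS12 on the opposite strand, did not pass the threshold, at a log2 difference of -0.01 (adjusted p = 0.877 in limma). MRPS7, which binds the head of the small subunit in bacteria, differed by -1.17 (SE 0.08), with 44.4 to 69.1 in T-47D, against 95.7 to 130.8 in ECC-1. The genes that overlap MRPS7 on the opposite strand, GGA3 and MIF4GD, were higher in T-47D, by 0.88 and 0.98.

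A smaller set was higher in T-47D. MRPL10, which anchors the stalk that recruits translation factors, had 35.1, 39.6 and 43.0 in T-47D, against 23.1, 23.8 and 27.2 in ECC-1, a difference in log2 level of 0.68 (SE 0.06, adjusted p = 1.2e-08). MRPS30 had 16.7, 17.7 and 19.9 in T-47D, against 9.55, 11.4 and 12.7 in ECC-1, a difference of 0.68 (SE 0.07, adjusted p = 6.81e-08). The lines did not overlap for either gene. MRPS14 had 24.1, 28.5 and 30.03 in T-47D, against 13.4, 19.7 and 21.5 in ECC-1, a difference of 0.53 (SE 0.08). MRPS18B had 68.5, 78.5 and 92.1 in T-47D, against 46.2, 59.5 and 61.7 in ECC-1, a difference of 0.44 (SE 0.07). MRPS22, an addition of mitochondria in which mutations cause infant respiratory chain disease, had 44.05, 50.4 and 59.2 in T-47D, against 29.3, 41.3 and 42.8 in ECC-1, a difference of 0.38 (SE 0.08). MRPL49 differed by 0.32 and MRPL16 by 0.27, and these 7 are the genes for which every T-47D library was the higher. Of them, MRPS22 overlaps COPB2 on the opposite strand, which was higher in T-47D by 1.72, MRPL49 overlaps SYVN1, higher by 1.27, and FAU, lower at -0.64, and MRPS14 overlaps CACYBP, lower at -0.91. The largest difference among the higher genes was 0.68, and among the lower genes -2.82.

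Several of the higher calls rest on less. MRPL22, which reaches into the peptide tunnel, differed by 0.38 and MRPS21 by 0.36 over the 4 treatments, with lines that overlapped: MRPL22 had 10.6 to 15.7 in T-47D, against 7.49 to 11.6 in ECC-1, and MRPS21 had 24.1 to 37.8 in T-47D, against 14.1 to 28.5 in ECC-1. MRPL41 (0.33, adjusted p = 0.0335 in limma) had 61.7 in the first T-47D estradiol library, 20.6 to 29.6 in the other 7 and 18.1 to 25.8 in ECC-1. Without the first estradiol libraries its difference was 0.13 (adjusted p = 0.0809). In the DMSO cells the 5 higher genes were MRPS30 (0.84), MRPL10 (0.78), MRPS14 (0.45), MRPL22 (0.39) and MRPS25 (0.28). The calls of MRPL22 and MRPS25 there were lost without the scale factors, at 0.29 (adjusted p = 0.126 in limma) and 0.18 (adjusted p = 0.127), and that of MRPS14 was lost without the first T-47D DMSO library, at 0.42 (adjusted p = 0.0665), or without the first ECC-1 DMSO library, at 0.44 (adjusted p = 0.0562).

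The 10 members that did not pass the threshold over the 4 treatments included both abundant and rarer genes. MRPL9 had 63.4, 75.2 and 82.4 in T-47D, against 57.6, 70.5 and 73.6 in ECC-1, a difference in log2 level of 0.11 with a 95% interval of -0.02 to 0.24. MRPL46 differed by 0.00 (interval -0.17 to 0.17), MRPL15 by -0.04 (-0.20 to 0.12) and MRPS2 by -0.05 (-0.17 to 0.07). Differences of the size seen for MRPL10 are outside these intervals.

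The promoter letters were set beside these calls. Of the 67 members with a promoter, 47 were lower in T-47D, and 22 of those held the ETS core, as did 6 of the other 20. The YY1 motif stood in 8 of the 47 and in 5 of the 20. These are counts, with no test.

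Many members share their place in the genome with other genes. In GENCODE, 28 of the 76 overlap an exon of a gene on the opposite strand and 16 one on the same strand, 41 in all, and reads from such exons cannot be told apart here. Named pseudogenes exist for 33 members, 70 in total, with which the counting could split reads. Within 1000 bases of their start, 20 members have a gene that runs the other way, and 18 such pairs had both genes tested, 1 of them under an older symbol. In 8 of the 18 both genes were lower in T-47D. Of the partners, 11 were lower and 6 higher, where 42.8% of all genes tested were lower and 45.6% higher. The share among such pairs of all genes is not given here. TCP1, a subunit gene of the cytosolic chaperonin, was lower, at a log2 difference of -0.98, beside MRPL18 at -0.94, and ZNF189 was at -0.93 beside MRPL50 at -1.29. In several other pairs the 2 genes went apart. EME2 was higher by 1.35 beside MRPS34 at -0.83, IGHMBP2 by 0.66 beside MRPL21 at -0.35 and PTCD2 by 0.45 beside MRPS27 at -0.35. FAU was lower, at -0.64, beside MRPL49 at 0.32. LRRC46 was higher by 2.80 beside MRPL10 at 0.68. C10orf2, the mitochondrial helicase gene that GENCODE names TWNK, was lower, at -0.81, beside MRPL43 at 0.15 (adjusted p = 0.0572 in limma).

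Few of these genes passed the threshold with a compound. With estradiol in T-47D, 1 of the 76 genes passed the threshold, against 3.22% of all genes tested. It was MRPL24, a large subunit protein at the exit of the peptide tunnel. MRPL24 had 57.1 and 40.3 scaled RPKM with estradiol and 28.8 and 29.5 with DMSO, and in the other T-47D libraries 27.4 and 31.1 with BPA and 32.6 and 31.8 with genistein. Both estradiol libraries lay above all other T-47D libraries, with a wide gap between the 2. Set against the DMSO libraries alone, both estradiol libraries were the higher for 17 of the 76 members and 16.9% of all genes. The rise of MRPL24 was 0.71 on the log2 scale (95% interval 0.35 to 1.06, adjusted p = 0.0292 in limma), or 1.63-fold. MRPL24 overlaps no other gene in its exons.

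The call of MRPL24 depended on single libraries. It was 0.46 (adjusted p = 0.223 in limma) without the first estradiol library, 0.69 (adjusted p = 0.155) without the first DMSO library and 0.73 (adjusted p = 0.191) without the second, and 0.96 (adjusted p = 0.00232) without the second estradiol library. With the first estradiol library of both lines left out it was 0.46 (adjusted p = 0.0188). With weights per library its adjusted p was 0.125, and in a fit on T-47D alone 0.132.

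The other 75 members did not pass. Of the 76, 10 had an unadjusted p under 0.05 in limma, as did 2051 of the 13827 genes tested. The members' log2 changes with estradiol in T-47D ranged from -0.43 to 0.71, with 59 of the 76 above 0, against 48.1% of all genes. Their median was 0.17, against -0.01 for all genes. The 2 estradiol libraries of T-47D were unlike. In the first, the members lay at a median of 0.21 above the mean of the line's 8 libraries, and in the second at 0.05. In that first library transcripts of all genes of at most 2163 bases lay at a median of 0.16 and those of at least 3873 bases at -0.16. MRPL12, which also binds the mitochondrial RNA polymerase, had 89.6 in the first estradiol library, 48.7 in the second, and 48.5 and 41.5 with DMSO. Without the second estradiol library, 25 members passed, 23 higher and 2 lower, where 11.25% of all genes were higher and 11.4% lower. Without the first none did, against 1.4% of all genes higher and 0.62% lower. Without the first estradiol library of both lines the median was 0.05, and with the length and GC trends removed it was 0.04.

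**Figure D3:**
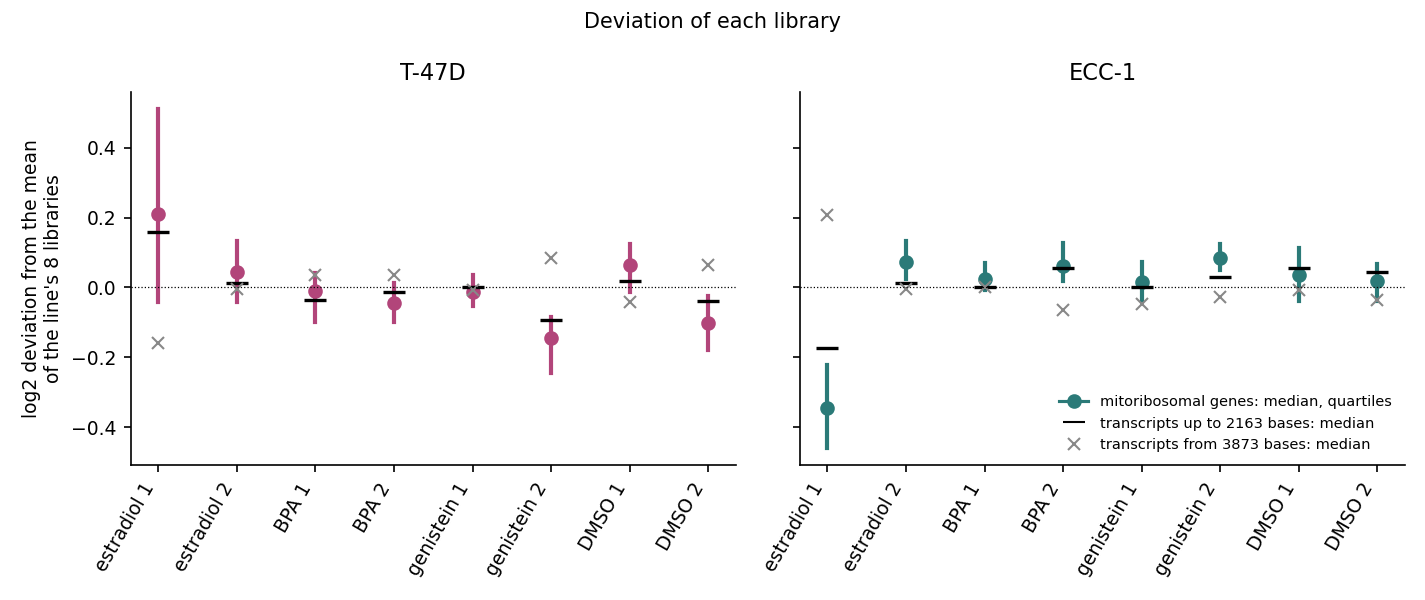
Deviation of each library from the mean of its line's 8 libraries, log2 scale, for the 76 genes (points, median, lines, quartiles) and for the transcripts of all genes of at most 2163 and at least 3873 bases (dashes and crosses, medians), T-47D left of ECC-1. The first estradiol libraries lie at 0.21 (T-47D) and -0.35 (ECC-1), and the short and long transcripts lie on opposite sides of 0 in both.

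With estradiol in ECC-1 no member passed the threshold in limma, against 1.89% of all genes. Of the members 8 had an unadjusted p under 0.05 in limma, as did 2125 of the 13827 genes tested. The median was -0.18, against 0.00 for all genes, and 15 of the 76 were above 0, against 49.4% of all genes. The smallest p was that of MRPS21, a small subunit protein of bacterial descent, with 14.1 and 23.0 with estradiol and 28.5 and 24.1 with DMSO (log2 change -0.53, 95% interval -0.92 to -0.14, adjusted p = 0.187 in limma). MRPS33, an addition of mitochondria, had 16.9 and 26.3 with estradiol and 31.6 and 27.4 with DMSO (-0.47, interval -0.86 to -0.09, adjusted p = 0.232). In both genes the low value was that of the first estradiol library. That library lay at a median of -0.35 for the members, with the short transcripts of all genes at -0.17 and the long ones at 0.21. Without the second estradiol library 18 members passed, all lower, where 8.09% of all genes were higher and 7.55% lower. Without the first none passed and the median was 0.04, and with the trends removed it was -0.03.

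The difference of the 2 estradiol responses passed for no member in limma, against 1.73% of all genes. At an unadjusted p under 0.05 in limma were 17 members, and 2277 of the 13827 genes tested. The members' median difference, T-47D minus ECC-1, was 0.32, against -0.01 for all genes, and 68 of the 76 were above 0, against 49.2% of all genes. MRPL24, with 22.9 and 32.6 in ECC-1 with estradiol and 33.2 and 30.8 with DMSO there, had a difference of 0.93 (95% interval 0.43 to 1.43, adjusted p = 0.0619), and MRPS21 one of 0.89 (0.34 to 1.44, adjusted p = 0.112). Without the first estradiol library of both lines the median was 0.01. Without the second T-47D estradiol library 22 members passed, 21 higher and 1 lower, where 8.17% of all genes were higher and 7.85% lower. Without the second ECC-1 estradiol library 18 passed, all higher, where 6.54% of all genes were higher and 5.87% lower. With quantile normalization MRPL24 passed, at 0.95 (adjusted p = 0.0487).

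With BPA none of the 76 passed the threshold in either line, and none had an unadjusted p under 0.05 in limma. Of all genes, 0.0% passed in T-47D and 0.195% passed in ECC-1. The members' log2 changes ranged from -0.20 to 0.19 in T-47D (median -0.02) and from -0.16 to 0.23 in ECC-1 (median 0.01). The smallest p in T-47D was that of MRPS28, with 17.4 and 18.1 with BPA and 17.9 and 13.3 with DMSO (0.19, 95% interval -0.14 to 0.53). In ECC-1 it was that of MRPS2, with 27.9 and 27.6 with BPA and 22.8 and 25.7 with DMSO (0.19, interval -0.05 to 0.44). The half-width of a member's 95% interval, which is not adjusted for the number of genes, had a median of 0.36. Changes smaller than that were mostly not detectable with 2 libraries a group. Larger changes could also fail to pass the threshold on the adjusted p. The lowest change of a member with estradiol in ECC-1, -0.53, did not pass it.

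With genistein none passed either. In T-47D 0.803% of all genes passed, and the members ranged from -0.32 to 0.19 (median -0.06), with none at an unadjusted p under 0.05 in limma. MRPL11, a protein of the base of the factor-binding stalk, had the smallest p there, with 18.8 and 15.4 with genistein and 22.1 and 20.1 with DMSO (-0.30, 95% interval -0.69 to 0.08). In ECC-1 0.969% of all genes passed, and the members ranged from -0.31 to 0.34 (median 0.01), 2 of them at an unadjusted p under 0.05. MRPS2, a small subunit protein of bacterial descent, had 31.3 and 29.7 with genistein and 22.8 and 25.7 with DMSO (0.33, interval 0.08 to 0.57, adjusted p = 0.352 in limma). MRPL4 had 71.8 and 63.4 with genistein and 49.4 and 57.6 with DMSO (0.34, interval 0.07 to 0.61, adjusted p = 0.428). Both genistein libraries lay above both DMSO libraries for MRPS2 and MRPL4, which was so for 22 of the 76 members and 21.9% of all genes tested. MRPS2 and MRPL4 passed when libraries were weighted (adjusted p = 0.0119 and 0.0466 in limma).

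**Figure D4:**
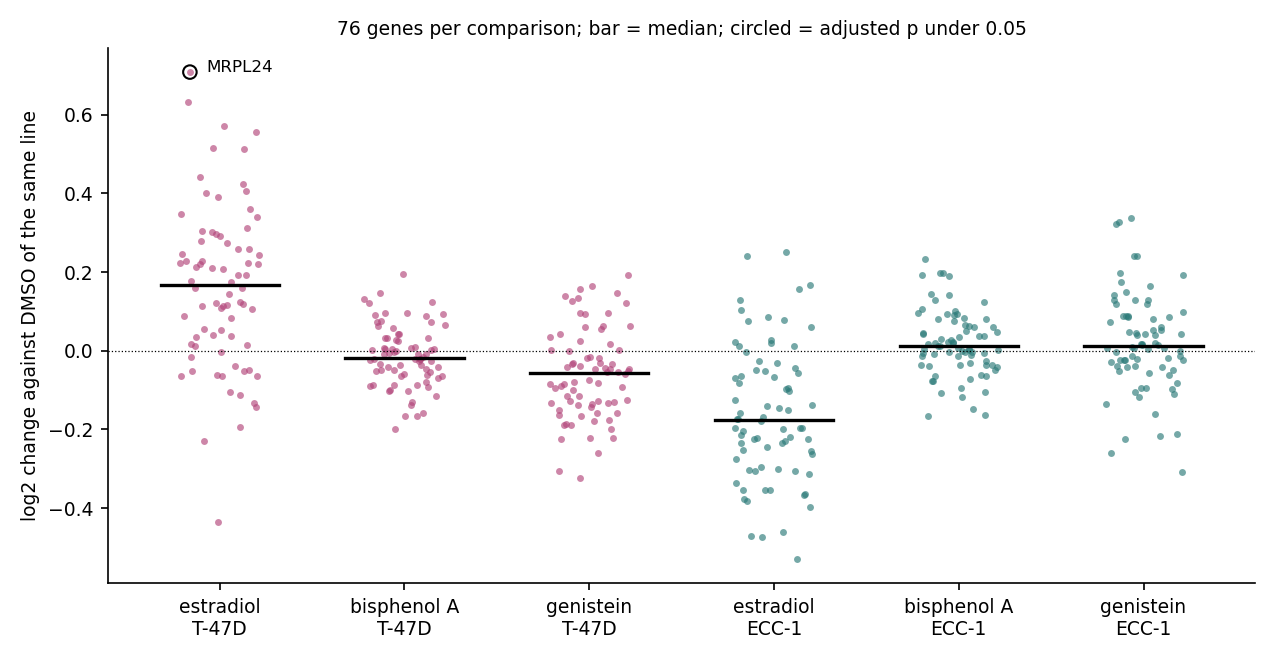
Log2 change of each of the 76 genes against DMSO of the same line (points), with the median (bars), for 3 compounds in T-47D, against 3 in ECC-1. The medians lie at 0.17 with estradiol in T-47D, -0.18 with estradiol in ECC-1 and within 0.06 of 0 in the other 4, and only MRPL24 (circled) passed the threshold.

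BPA and genistein were given at the same dose and time and can be compared directly. In T-47D no member differed between genistein and BPA past the threshold in limma, against 0.405% of all genes. The largest departures by p were MRPS25, with 20.4 and 20.7 with genistein and 17.98 and 18.1 with BPA (0.19, 95% interval -0.03 to 0.41), and MRPS28, with 16.2 and 13.1 with genistein and 17.4 and 18.1 with BPA (-0.28, interval -0.62 to 0.06). In ECC-1 none differed, against 0.0434% of all genes, with intervals of -0.11 to 0.38 for MRPS2 and -0.13 to 0.41 for MRPL4. These 2 comparisons were adjusted over all genes each, and none of the members had an unadjusted p under 0.05. The difference between the lines in the BPA response passed for none (0.0434% of all genes, median -0.04) and that in the genistein response for none (0.586% of all genes, median -0.09). The smallest p in both was that of MRPS2, at -0.26 (interval -0.60 to 0.09) for BPA and -0.33 (-0.67 to 0.02) for genistein, T-47D minus ECC-1. Estradiol was given at another dose. Its summed level of the 76 genes was 2588 ± 244 in T-47D, beside 2256.3 ± 31.1 with BPA, 2199 ± 161 with genistein and 2286 ± 191 with DMSO (SD, n = 2 each), and in ECC-1 3229 ± 635, beside 3578.2 ± 84.9 with BPA, 3606.6 ± 86.4 with genistein and 3525.7 ± 3.9 with DMSO.

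Other genes of mitochondrial gene expression were set beside the members, in lists chosen with earlier results of these data known. Their counts are those of T-47D relative to ECC-1 over the 4 treatments, where 42.8% of all genes were lower and 45.6% higher, with a median of 0.05. A list of 8 held 7 mitochondrial ribosome proteins whose symbols do not follow the pattern and OXA1L, the inner membrane insertase to which the ribosome binds. Of the 8, 7 were lower in T-47D, OXA1L among them at -0.81, and 1 was higher (median -0.82). GADD45GIP1 had 19.3 ± 6.3 in T-47D, against 46.7 ± 5.3 in ECC-1 (SD, n = 8), a difference in log2 level of -1.29, MRP63 one of -1.19 and AURKAIP1 one of -0.93. DAP3, the GTP-binding protein of the small subunit, was the 1 higher gene, with 69.6 ± 7.7 in T-47D, against 37.3 ± 3.2 in ECC-1, a difference of 0.89.

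Of 26 genes for assembly of the ribosome and modification of its RNA, 18 were lower and 7 higher in T-47D (median -0.49). MPV17L2 (-1.57), C18orf22 (-1.32) and METT11D1 (-1.06) were the lowest, and MRM1 (1.03), an rRNA methyltransferase, GTPBP5 (0.85) and WBSCR16 (0.83) the highest. Of 18 translation factors and related genes 12 were lower and 2 higher (median -0.36). GTPBP3 (-1.32) and TRMU (-1.11), which modify mitochondrial tRNAs, and MTFMT (-1.12), which formylates the initiator tRNA, were lower. The elongation factor gene GFM1 (0.81) and the deformylase gene PDF (0.36) were higher.

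Of 16 genes for transcription, RNA processing and replication in mitochondria 12 were lower and 3 higher (median -0.65). PNPT1 (-1.60) and SUPV3L1 (-1.20), which degrade mitochondrial RNA, and the transcription factor gene TFB2M (-1.23) were lower. POLG2 (0.98), the accessory subunit of the DNA polymerase, KIAA0391 (0.71), the nuclease of mitochondrial RNase P, and C17orf42 (0.62) were higher. Of 24 genes for protein import and folding 18 were lower and 3 higher (median -0.72). TOMM5 (-2.12), TOMM22 (-1.64) and the chaperonin partner gene HSPE1 (-2.10) were lower, and TIMM17B (1.15), PMPCA (0.68) and TOMM70A (0.39) higher.

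Of 10 regulators of nuclear genes for mitochondria 8 were lower in T-47D and none higher (median -0.42). MYC had 8.48 ± 5.01 in T-47D, against 30.3 ± 6.44 in ECC-1, a difference in log2 level of -1.98, PPARGC1B one of -1.15 and NRF1 one of -0.57. GABPA and GABPB1, whose products bind the ETS core, differed by -0.23 and -0.50, and YY1 by 0.10 (adjusted p = 0.103 in limma).

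A few genes of these lists passed the threshold with a compound, with adjusted p-values in limma of at most 0.0493. MYC rose by 2.09 with estradiol in T-47D and by 0.71 in ECC-1, and with genistein by 1.77 in T-47D and by 0.78 in ECC-1. PPARGC1B, a coactivator, rose in ECC-1 by 1.24 with estradiol and by 0.86 with genistein, and PPRC1 by 0.75 with estradiol. PPARGC1A fell by 0.68 with genistein in ECC-1. With estradiol in T-47D, HSPD1, the mitochondrial chaperonin, was higher by 0.49 (adjusted p = 0.0401 in limma). C10orf2, the mitochondrial helicase, was higher by 0.67 (adjusted p = 0.031), and its exons overlap those of MRPL43 on the opposite strand. C21orf57, from the list for assembly of the ribosome and modification of its RNA, rose in T-47D by 0.81 with estradiol and by 0.61 with genistein. The estradiol calls include the first estradiol libraries, and fits with libraries left out are not given for these genes.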

How the data were processed

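RNA was sequenced from 16 libraries of 2 cell lines. The authors deposited RPKM values for 32062 RefSeq transcripts per library, aligned with Bowtie to hg19 per the submitters' processing notes. Versions and the counting of reads are not given in the sources used here. From these values depth was estimated through the steps between low RPKM values. Then 60.8 to 67.4% of low values (under 10 reads) came out whole to within 0.1, and 20% would do so by chance, so no count test was run. No 2 libraries were identical.

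Scale factors per library (0.938 to 1.053) were median ratios to the geometric mean of 7547 genes with at least 5 RPKM throughout. Genes with at least 1 RPKM in 2 libraries were tested on log2(scaled RPKM + 0.5) with limma 3.58.1 (R 4.3.3), 8 group means and a mean-variance trend, with 8 residual and 6.9 prior degrees of freedom, and Benjamini-Hochberg adjustment per contrast. The procedure was tested on simulated data. Alternatives were other scaling, pseudocounts, filters, row choices, weights, a block and left-out libraries. Trend removal, and the libraries left out of the counts of lines that do not overlap, were chosen after seeing the data. Members and lists were chosen with earlier results of these data known. Named were the 5 highest and lowest members by level, the 10 largest differences each way between lines, the 6 largest each way with compounds or, with none past the threshold, the 2 smallest p, and the 3 largest each way per list. Of the 2 smallest p, only the first is given for BPA in either line and genistein in T-47D. The same holds for the line differences in the BPA and genistein responses. Other members were chosen after their values were seen: MRPL3, MRPS7 and MRPL12, those near 0 between lines and those beside overlapping or neighbouring genes. Some symbols of 3 lists matched no row, most of them entered under an older symbol too. Gene neighbours come from GENCODE 29, with older symbols from RefSeq, promoters from RefSeq (GRCh38.p14), names only where builds differ from hg19. Transcript lengths and GC content, used for depth, estimated reads and trends, come from GENCODE 29 transcripts matched by RefSeq accession. They may differ from the lengths behind the RPKM values.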

Additional observations from a re-analysis of the deposited data

Results flagged for a closer look

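For no mitochondrial ribosomal protein gene did the difference between the lines in the response to a compound pass the threshold in limma, with 17 at an unadjusted p under 0.05 for estradiol. MRPL24 passed with quantile normalization, at 0.95 (adjusted p = 0.0487). In the lists set beside them, 3 genes passed in limma's test of the difference itself, T-47D minus ECC-1. For MYC the estradiol response differed by 1.37 (adjusted p = 0.00323), with rises of 2.09 in T-47D and 0.71 in ECC-1. For C21orf57 it differed by 1.17 (adjusted p = 0.00309), with 0.81 in T-47D and -0.36 in ECC-1. For PPARGC1A the genistein response differed by 1.07 (adjusted p = 0.0332), with a fall of 0.68 past the threshold in ECC-1. Alternatives were not run for these 3.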

How the results depend on the processing

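Replicate numbers of different groups of a line deviated together only in part, with correlations of -0.224 to 0.408, so the 2 libraries share a number and no more is known. With the replicate block 2 members passed with estradiol in T-47D (MRPL24 and MRPL17, at 0.57), 59 in the DMSO comparison of the lines and 69 over the 4 treatments. The counts with estradiol in T-47D were also 0 without a filter, 0 with weights per library, 2 without both first estradiol libraries (MRPL24 and MRPL3, at 0.43), 0 when T-47D was fitted by itself and 3 with the length and GC trends removed. Leaving out 1 library gave 0 to 25 there, 0 to 18 with estradiol in ECC-1 and 0 to 22 for the difference of the estradiol responses, and 0 in the other comparisons with compounds. A group left with 1 library was assumed to vary like the others. With the trends removed, the 3 members called with estradiol in T-47D went both ways. MRPL17 (0.54) and MRPL24 (0.46) were higher and MRPS36 (-0.43) was lower. With genistein in ECC-1, 2 members passed with weights per library and 1 without both first estradiol libraries (MRPS2). The difference of the estradiol responses had 1 with quantile normalization (MRPL24). For the compound settings of this paragraph the shares of all genes are not given here. In the main fit the shares were 3.22% with estradiol in T-47D, 0.969% with genistein in ECC-1 and 1.73% for the difference of estradiol responses. Leaving out 1 library gave 43 to 52 members between the lines in DMSO and 65 to 69 over the 4 treatments, with medians of -0.68 to -0.51 and -0.58 to -0.45. These counts, like those with the replicate block, join higher and lower members. With all libraries in the main fit, 37.1% of all genes were lower and 39.6% higher in DMSO. Over the 4 treatments 42.8% were lower and 45.6% higher. The shares of all genes in the altered line comparisons are not given here. Of the settings for single named members, 1074 kept direction and side of the threshold, 35 lost the call, 10 gained one and 0 reversed. The cause was not tested. With 2 libraries a group, estradiol libraries that differ most (SD 0.411 in T-47D and 0.343 in ECC-1, 0.170 to 0.242 in other groups) and 1 shared spread, small changes with compounds are the least certain.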
